A study of Mus musculus with 12 samples.

Results

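The complement components and regulators described here were 9 listed genes, and all 9 were among the 25514 annotated genes of the series. They were the central component C3, the classical-pathway components C4b, C1ra and C1s1, the alternative-pathway protease Cfb, the soluble regulators Cfi and Serping1, and the membrane regulators Cd55 and Cd59a. For each gene, the transcript with most counts over all libraries stood for it. Of the 9, 8 passed the filter on low counts and were tested with 12971 genes in all. Cfi did not pass and is given by its counts. The libraries, 12 in number, were made from the RNA of proximal tubule (PT) cells from male mice, with 3 libraries in each of 4 groups. All cells were conditionally immortalized: they carried the Immorto-mouse transgene (H2ts6 in the labels), a temperature-sensitive T antigen, and were grown at 33 °C and moved to 37 °C 5 days before the experiment. TβRII flox/flox PT cells (H2ts6;Tgfbr2fl/fl) carried floxed alleles of the TGF-β type II receptor gene. TβRII-/- PT cells (H2ts6;Tgfbr2-/-) were made from them by adding Cre in vitro. Both genotypes were sequenced untreated, in culture medium with 2.5% serum, or after H2O2 for 24 h in serum-free medium. The labels give the dose as 200 mM, whereas the methods give it in μM. Each genotype was 1 cell line, so the deletion and any other difference between the lines cannot be told apart. H2O2 and the removal of serum cannot be told apart either, and the labels list interferon gamma, a known inducer of complement genes, in the growth medium. The methods describe its removal when the cells were moved to 37 °C before experiments. The labels do not say whether the 3 libraries of a group came from separate cultures, so that p-values measure only the spread between these libraries.

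Complement is a cascade of plasma and cell-surface proteins that marks cells and microbes and can open pores in their membranes. In the classical pathway the C1r and C1s proteases cleave C4 and C2. In the alternative pathway factor B pairs with C3b. Both pathways converge on the cleavage of C3. Serping1 (C1 inhibitor) blocks C1r and C1s, factor I (Cfi) inactivates C3b and C4b, Cd55 speeds the decay of the convertases, and Cd59a blocks the assembly of the membrane pore. The liver makes most circulating complement, and tubular epithelial cells are a known local source of C3 in the injured kidney.

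The series was evenly sequenced. Counts of the representative transcripts summed to between 15870144 and 20857609 per library. A normalized count is a count scaled by TMM to the mean effective library of 17351823, and counts this low for most members limit the precision. The targeted gene, Tgfbr2, had between 7032 and 8791 counts in untreated TβRII flox/flox cells and between 6485 and 6895 in untreated TβRII-/- cells. It differed by -0.35 (SE 0.066) on the log2 scale untreated and by -0.92 (SE 0.066) with H2O2. These are counts of a whole transcript, most of which may lie outside the deleted part, so that they cannot check the deletion itself. Of 12 proximal tubule markers, 4 (Hnf4a, Slc22a6, Slc22a8 and Slc34a1) had at most 3 counts in every library, and Slc22a6 had 0 in all. The summed normalized count of the 12 markers was between 27440 and 33210 in untreated TβRII flox/flox cells and between 21050 and 22510 in untreated TβRII-/- cells. Of the 7 tested, 6 were called lower in TβRII-/- cells, and Pax8 was not called (means 5223 and 6262). The summed count of 5 general epithelial markers went the other way, with between 12150 and 13890 against between 31230 and 33910. Cdh16 carried most of this sum (means 10310 and 21440), and all 5 were called higher. Epcam had 0 to 1 counts against 649 to 697, and Cdh1 had 1 to 3 against 1069 to 1223. With H2O2 the sums were 35110 to 37910 against 21440 to 22890 for proximal tubule and 15840 to 17270 against 31370 to 32300 for epithelium. In TβRII flox/flox cells, Aqp1 carried the higher proximal tubule sum with H2O2 (means 7103 untreated and 14610), whereas Ggt1 was lower (75.8 and 21.2). The part of these shifts in the genotype differences below was not tested. In bulk RNA, fewer cells of a type and less RNA per cell cannot be told apart. Leukocytes are another source of complement. Of 9 leukocyte and macrophage markers, Adgre1 and Cd3e had 0 counts in every library and 5 had at most 3, and the summed normalized count was between 551.7 and 599.8 in untreated TβRII flox/flox cells and between 400.1 and 408.9 in untreated TβRII-/- cells. With H2O2 it was between 526.8 and 609.7 against between 490.1 and 518.2. The sum was mostly Cd14 and Cd68, which were called in opposite directions between untreated genotypes (-1.43 and 0.78).

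In TβRII-/- cells, C3 and Cd55 were higher and C1ra was lower than in TβRII flox/flox cells, with or without H2O2. In both genotypes, H2O2 in serum-free medium was accompanied by higher C4b, Cfb, C1ra and C1s1, where the rise of C4b in TβRII flox/flox cells rested on 1 library. C4b passed the filter on low counts through libraries with H2O2 only. Calls required at least a 1.5-fold change and an adjusted p under 0.05 (Benjamini-Hochberg, over all genes tested with edgeR's quasi-likelihood test). Between untreated genotypes, 3 of the 8 tested members were called (2 higher and 1 lower in TβRII-/- cells), where 28.0% of all genes were called (16.3% higher and 11.8% lower). With H2O2, 5 of 8 differed between genotypes (3 higher and 2 lower), against 30.7% of all genes (17.3% higher and 13.4% lower). H2O2 was accompanied by 5 higher and 0 lower members in TβRII flox/flox cells, where 8.24% of all genes were called (5.68% higher and 2.56% lower). In TβRII-/- cells it was accompanied by 4 higher members and 1 lower one, against 8.33% of all genes (4.56% higher and 3.76% lower). The libraries of the compared groups did not overlap in normalized counts for 4 members between untreated genotypes (65.3% of all genes), 5 between genotypes with H2O2 (71.0%), 5 with H2O2 in TβRII flox/flox cells (47.4%) and 8 with H2O2 in TβRII-/- cells (52.1%). The comparisons share libraries with each other, so that they are not independent. The median log2 difference over the 8 members was 0.99 and 0.78 for H2O2 in TβRII flox/flox and TβRII-/- cells, and 0.14 and 0.34 between genotypes untreated and with H2O2. Over all genes tested the same medians were between 0.01 and 0.02. Members of the list are few and were not drawn at random, so that these shares describe the 9 genes only.

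**Figure D1:**
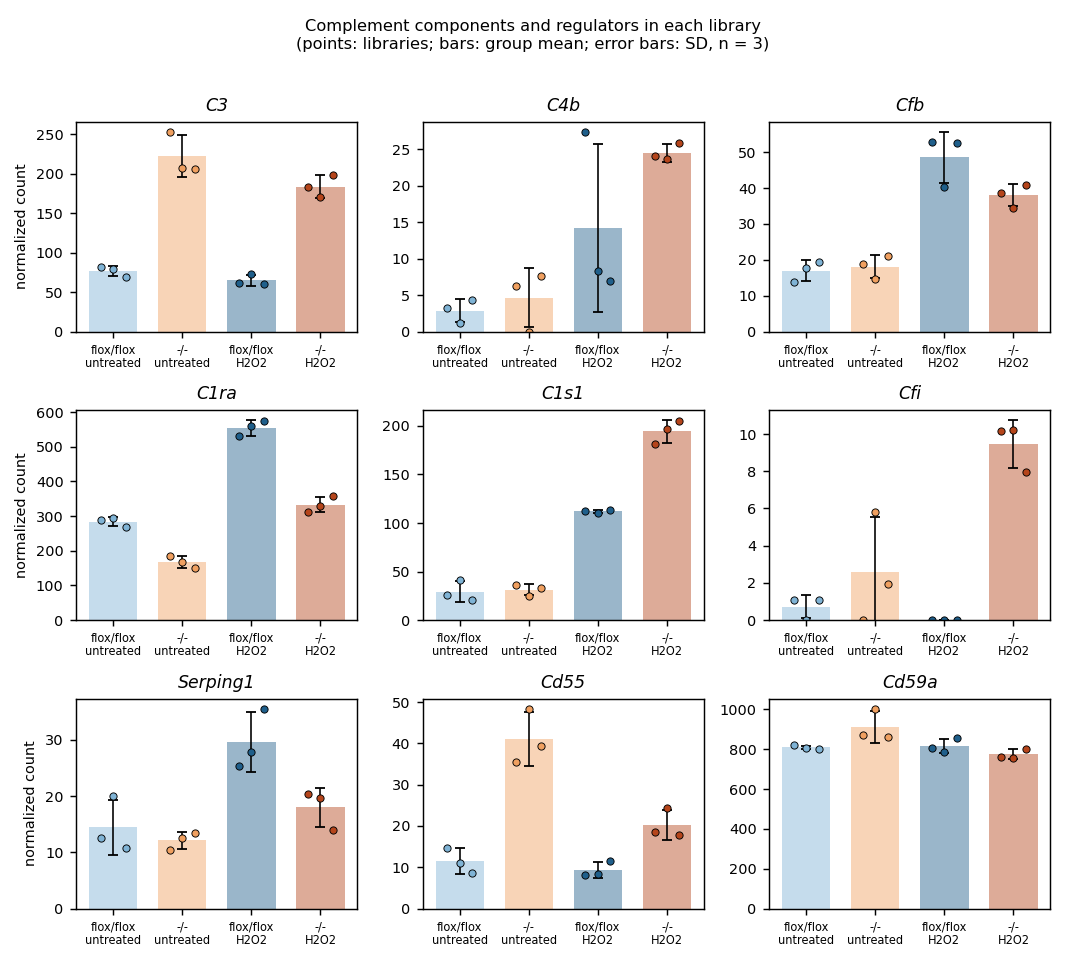
Normalized counts (y axis, counts scaled to a common library size) of the 9 complement genes in the 4 groups (x axis). Points are libraries, bars are means and error bars are SD (n = 3). C3 and Cd55 sat higher in TβRII-/- cells, C1ra sat lower, and Cfb, C1ra and C1s1 sat higher with H2O2 in both genotypes.

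**Figure D2:**
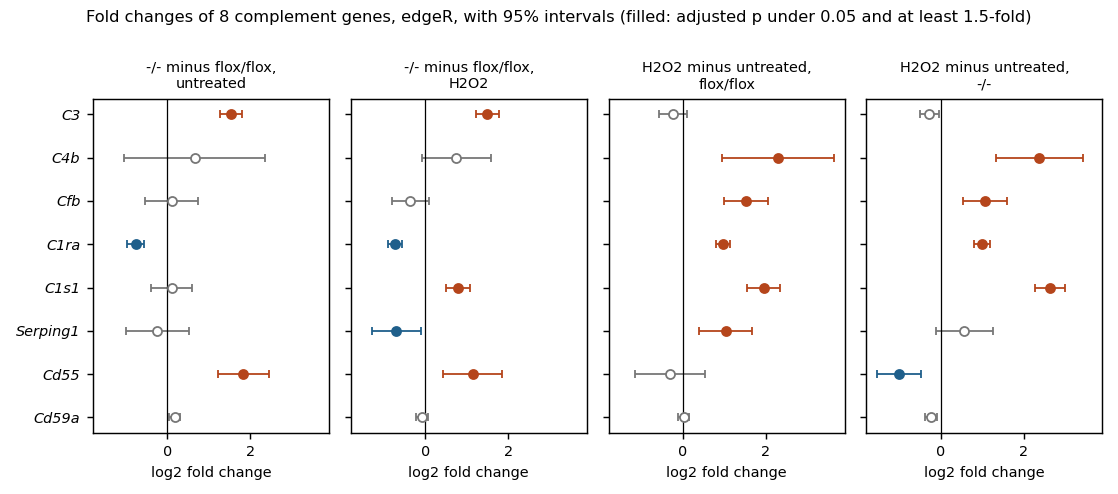
Log2 fold changes (x axis, edgeR, with 95% intervals) of the 8 tested complement genes in the 4 comparisons (panels). Filled points passed both limits. C3 lay at 1.53 and 1.498 between genotypes, whereas C1s1 lay at 1.94 and 2.63 with H2O2.

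The members spanned a wide range of levels. Divided by transcript length in kilobases, so that genes can be compared, the mean normalized count per kilobase in untreated TβRII flox/flox cells was 445 for Cd59a, 95.3 for C1ra and 14.9 for C3. C1s1 (9.88), Serping1 (7.89), Cfb (5.11) and Cd55 (3.67) followed, with C4b (0.526) and Cfi (0.325) near the limit of detection. In TβRII-/- cells with H2O2 the order was Cd59a (425), C1ra (112), C1s1 (65.6), C3 (35.6), Cfb (11.5), Serping1 (9.79), Cd55 (6.46), C4b (4.50) and Cfi (4.33), so that C1s1 stood above C3 there. Cd59a was the most abundant member per kilobase in all 4 groups, followed by C1ra.

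C3, the component on which all pathways converge, lies on the minus strand at chr17:57203967-57228136 (GRCm38.p6) and was counted on the protein-coding transcript ENSMUST00000024988 with 41 exons. It had 78, 71 and 64 counts in the 3 untreated TβRII flox/flox libraries and 242, 214 and 215 in the untreated TβRII-/- libraries. With H2O2 it had 61, 70 and 52 counts in TβRII flox/flox cells and 198, 216 and 199 in TβRII-/- cells. Every TβRII-/- library was above every TβRII flox/flox library, in either medium. The mean normalized count was 76.6 ± 6.93 against 222 ± 26.9 (SD, n = 3) untreated, a difference of 1.53 on the log2 scale (SE 0.134, edgeR adjusted p = 1.09e-11), or 2.89-fold. With H2O2 it was 64.6 ± 6.77 against 184 ± 14, a difference of 1.498 (SE 0.140, adjusted p = 4.26e-11). C3 was not called for H2O2 in either genotype, with log2 differences of -0.24 (95% interval -0.58 to 0.09) in TβRII flox/flox cells and -0.28 (-0.51 to -0.04, adjusted p = 0.0542) in TβRII-/- cells. The difference between these 2 responses was -0.03 on the log2 scale, with an interval from -0.45 to 0.38. The 2 other C3 transcripts with a mean of at least 10 counts went the same way, with medians of 18 against 44 and of 10 against 30 counts in the untreated genotypes. Of 4 endothelial markers, Pecam1 and Emcn had at most 3 counts in every library, and Cdh5 at most 4. The summed normalized count was between 124.8 and 137.8 against between 459.9 and 583.6 in the untreated genotypes and 20.7 to 23.3 against 38.5 to 63.6 with H2O2. Nearly all of it was Kdr, with means of 129 and 507 in the untreated genotypes, whereas Cdh5 had 4, 3 and 1 counts in untreated TβRII flox/flox cells and 0 in every untreated TβRII-/- library. The part of these transcripts in the C3 values was not tested. A gene on the opposite strand (Gm65552) overlaps the counted transcript over 334 bases and was not analysed here. The authors' strand setting is not given in the sources used here.

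To show what lies upstream of the members that differed between genotypes and of those that moved together with H2O2, the 250 bases before the transcription start (RefSeq, GRCm38.p6) are printed for C3, C1ra and C1s1, 5′ to 3′ on the gene's strand, with any motif found in capitals. C1s1 has more than 1 start in the table, and the window of the start farthest upstream among these is shown. That window still overlaps the gene, whose 5′ end lies at 124542392. The C3 window is chr17:57228137-57228386 (minus strand), the C1ra window chr6:124512371-124512620 (plus strand) and the C1s1 window chr6:124542360-124542609 (minus strand).
C3: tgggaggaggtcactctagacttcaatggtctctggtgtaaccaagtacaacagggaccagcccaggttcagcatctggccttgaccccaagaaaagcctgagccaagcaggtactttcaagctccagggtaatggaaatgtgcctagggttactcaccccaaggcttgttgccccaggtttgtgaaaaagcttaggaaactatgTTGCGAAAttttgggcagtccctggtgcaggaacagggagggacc
C1ra: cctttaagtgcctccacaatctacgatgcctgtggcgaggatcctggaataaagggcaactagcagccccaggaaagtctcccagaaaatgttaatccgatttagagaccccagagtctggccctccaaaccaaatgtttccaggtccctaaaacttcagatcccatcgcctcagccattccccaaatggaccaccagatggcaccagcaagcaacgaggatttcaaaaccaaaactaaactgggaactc
C1s1: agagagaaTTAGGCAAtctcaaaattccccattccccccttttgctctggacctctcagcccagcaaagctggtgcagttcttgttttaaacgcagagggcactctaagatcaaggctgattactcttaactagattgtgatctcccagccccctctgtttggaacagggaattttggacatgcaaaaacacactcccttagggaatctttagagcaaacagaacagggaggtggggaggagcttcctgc
Promoters were found for 5 of the 9 members (C3, C1ra, C1s1, Cd55 and Cd59a). On both strands of these windows, 6 motifs were searched: GAS (TTCNNNGAA), an ISRE core (GAAANNGAA), AP-1 (TGANTCA), C/EBP (TTGCNNAA), Smad (GTCTAGAC) and kappaB by its usual consensus. The letters can overlap other motifs. C3 held a C/EBP match, TTGCGAAA, that begins 45 bases before the start, and the C1s1 window held one on the opposite strand, TTAGGCAA, 242 bases before its start. C/EBP matches occurred in 9.56% of 32851 mouse promoters of the same length. Cd59a held an ISRE core match, GAAAGGGAA, 187 bases before the start, as did 7.13% of promoters for that motif. No letters of the 6 motifs were found in the C1ra and Cd55 windows. The Cd55 window (chr1:130462745-130462994, minus strand) lies inside the gene, whose 5′ end is at 130465009, so that it precedes an internal start. The Cd59a window (chr2:104095551-104095800, plus strand) runs into its gene, which begins at 104095753. The other motifs occurred in 7.02% (GAS), 6.75% (AP-1), 0.167% (Smad) and 7.25% (kappaB) of promoters. These are matches of letters, and binding was not measured.

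The 5 protein-coding genes outside the complement lists whose log2 level followed C3 most closely over the 12 libraries were Lmo7 (Pearson's r = 0.995), Ces2e (0.992), Entpd5 (0.991), Krt4 (0.991) and Ly6a (0.990). All 5 had higher means in TβRII-/- cells, for example 55.5 and 508 normalized counts of Ly6a in the untreated genotypes. The 12 libraries fall into 2 genotypes, and as many as 1441 of the 12237 genes compared had an r over 0.9 with C3. Among members, Cd55 followed C3 most closely (r = 0.891), and C1ra ran against it (r = -0.706).

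The proteases C1ra and C1s1 encode the C1r and C1s subunits of the C1 complex. The genes lie on chromosome 6 at chr6:124512621-124523440 (C1ra, plus strand) and chr6:124530344-124542392 (C1s1, minus strand), 6903 bases apart with their 3′ ends facing. C1ra had 275, 264 and 250 counts in untreated TβRII flox/flox cells and 177, 174 and 157 in untreated TβRII-/- cells. The H2O2-treated libraries held 522, 541 and 501 against 339, 418 and 359. No 2 of the 4 groups overlapped in normalized counts. C1ra was lower in TβRII-/- cells by -0.76 on the log2 scale untreated (SE 0.099, adjusted p = 5.59e-08) and by -0.74 with H2O2 (SE 0.083, adjusted p = 2.50e-09). It was higher with H2O2 by 0.96 in TβRII flox/flox cells (SE 0.086, adjusted p = 1.39e-10) and by 0.99 in TβRII-/- cells (SE 0.095, adjusted p = 8.30e-10). The 2 responses differed by 0.02 on the log2 scale (95% interval -0.24 to 0.29). From the lowest to the highest, the group means were 168, 284, 333 and 554 normalized counts (TβRII-/- untreated, TβRII flox/flox untreated, TβRII-/- with H2O2 and TβRII flox/flox with H2O2), and each step passed the adjusted p of 0.05. Fibroblasts are another source of C1r and C1s. Of 6 fibroblast markers, Lum had 0 counts in every library and Col3a1 at most 3. Like C1ra, the summed normalized count of the 6 was higher in TβRII flox/flox than in TβRII-/- cells in both media. The sum was 53.8 to 67.3 against 16.5 to 29.3 untreated, and 75.4 to 96.3 against 40.6 to 50.7 with H2O2. Over all 4 groups the orders differed. C1ra was higher in TβRII-/- cells with H2O2 than in untreated TβRII flox/flox cells, whereas the sum was lower. The largest parts of the sum were Col1a1 and Pdgfrb in TβRII flox/flox cells, and Col1a1 and Dcn in TβRII-/- cells. Col1a1 and Pdgfrb were each lower in TβRII-/- cells in both media (Col1a1 by -1.56 untreated and -1.40 with H2O2). Dcn went the other way, higher by 1.87 (adjusted p = 0.0432) and 2.50 (adjusted p = 0.000165). It had at most 4 counts in any TβRII flox/flox library, 2 to 8 in untreated TβRII-/- cells and 14 to 24 with H2O2. Dcn thus passed the filter on low counts through TβRII-/- libraries with H2O2 only. Pdgfrb, with at most 6 counts in any TβRII-/- library, passed through TβRII flox/flox libraries only. The genotype tests of both are not independent of the filter. The part of these transcripts in the C1ra values was not tested.

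C1s1 rose with H2O2 in both genotypes and differed between genotypes with H2O2. It had 25, 37 and 19 counts in untreated TβRII flox/flox cells and 35, 26 and 34 in untreated TβRII-/- cells, and these groups overlapped (log2 difference 0.10, 95% interval -0.39 to 0.60). After H2O2 there were 111, 107 and 99 counts in TβRII flox/flox cells and 197, 250 and 206 in TβRII-/- cells. All H2O2 libraries were above all untreated ones, and with H2O2 all TβRII-/- libraries were above all TβRII flox/flox ones. H2O2 was accompanied by a rise of 1.94 (SE 0.196, adjusted p = 1.77e-09) in TβRII flox/flox cells and of 2.63 (SE 0.173, adjusted p = 1.13e-13) in TβRII-/- cells, or 3.83-fold and 6.18-fold. The latter was the largest fitted fold change among the 8 tested members. The difference between the responses was 0.69 (95% interval 0.11 to 1.27, unadjusted p = 0.0210) and did not pass when adjusted over all genes (adjusted p = 0.123). Without the untreated TβRII flox/flox replicate 2 it was 0.35 (adjusted p = 0.536). With H2O2 the genotypes differed by 0.79 (SE 0.140, adjusted p = 9.90e-06), so that C1ra was lower and C1s1 higher in the same TβRII-/- libraries. Both genes have near-identical neighbours. The C1rb transcript aligned to C1ra with 97.9% identity over 2431 bases and that of C1s2 to C1s1 with 95.9% over 2643 bases, so reads could be split between them. C1rb held between 1.39% and 5.22% of the summed counts of the pair by group. C1s2 held between 11.2% and 21.5%. C1s2 itself rose with H2O2 by 1.36 (adjusted p = 0.0320) and 1.63 (adjusted p = 0.00126) in TβRII flox/flox and TβRII-/- cells. It had 2 to 10 and 6 to 12 counts per library untreated, so that it needed libraries with H2O2 to pass the filter on low counts. These tests of C1s2 are therefore not independent of the filter.

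C4b, whose product is cleaved by C1s, lies at chr17:34728139-34743902 (minus strand). It was sparse in untreated cells, with 3, 1 and 4 counts in TβRII flox/flox cells and 6, 0 and 8 in TβRII-/- cells. With H2O2 it had 27, 8 and 6 counts in TβRII flox/flox cells and 26, 30 and 26 in TβRII-/- cells. The TβRII-/- libraries with H2O2 were close to each other, whereas 1 TβRII flox/flox library was well above the other 2. The rise with H2O2 was 2.37 on the log2 scale (SE 0.514, adjusted p = 0.000446) in TβRII-/- cells and 2.28 (SE 0.663, adjusted p = 0.00618) in TβRII flox/flox cells. No untreated library had more than 8 counts, so that C4b passed the filter on low counts through libraries with H2O2 only. These tests of H2O2 are therefore not independent of the filter. Summed over libraries and scaled for depth, the count ratios were 5.29 (95% interval 2.98 to 10.1) and 5.04 (2.33 to 12.4), intervals that cover counting error only. The rise in TβRII flox/flox cells rested on replicate 1 with H2O2. Without it the difference was 1.37 (adjusted p = 0.154), and the genotype difference with H2O2 became 1.64 (adjusted p = 0.0049) instead of 0.75 (adjusted p = 0.107). C4a, a near copy of C4b that is annotated as a transcribed pseudogene, was not matched, so that reads of the pair could not be separated.

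Cfb, the protease of the alternative-pathway convertase, lies at chr17:34856374-34862514 (minus strand), 87 bases from C2, the corresponding protease of the classical pathway. Cfb had 13, 16 and 18 counts in untreated TβRII flox/flox cells and 18, 15 and 22 in untreated TβRII-/- cells. The H2O2-treated libraries held 52, 39 and 46 counts in TβRII flox/flox and 42, 44 and 41 in TβRII-/- cells. All H2O2 libraries were above all untreated ones, and the genotypes overlapped in both media. The rise was 1.51 (SE 0.263, adjusted p = 2.64e-05) in TβRII flox/flox cells and 1.06 (SE 0.259, adjusted p = 0.00154) in TβRII-/- cells. These responses differed by -0.46 (95% interval -1.23 to 0.32). C2, named here after its values had been seen, rose by 1.36 (adjusted p = 1.71e-13) and 1.75 (adjusted p = 5.67e-16), from means of 199 and 161 to 511 and 540 normalized counts. The exons of Cfb overlap those of Nelfe on the opposite strand over 1598 bases and those of Gm20547 on the same strand over 2246 bases. Nelfe had between 434 and 924 counts per library and Gm20547 between 140 and 572, against at most 52 for Cfb. Gm20547 also rose with H2O2, by 1.40 in TβRII flox/flox and 1.65 in TβRII-/- cells, whereas Nelfe differed by 0.27 and 0.04. The part of these genes in the Cfb values was not tested. Reads of the overlapping parts could not be assigned with certainty.

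Of the soluble regulators, Serping1, the inhibitor of C1r and C1s, lies at chr2:84765360-84775444 (minus strand). It had 12, 18 and 10 counts in untreated TβRII flox/flox cells and 10, 13 and 14 in untreated TβRII-/- cells, with overlap. After H2O2 there were 25, 27 and 31 counts in TβRII flox/flox cells and 22, 25 and 14 in TβRII-/- cells. All TβRII flox/flox libraries with H2O2 were above the untreated ones, and their normalized counts were above those of TβRII-/- cells with H2O2. Serping1 rose with H2O2 by 1.02 (SE 0.317, adjusted p = 0.00970) in TβRII flox/flox cells. The value in TβRII-/- cells was 0.57 (95% interval -0.13 to 1.26, adjusted p = 0.193). The difference between these responses was -0.46 with an interval from -1.42 to 0.51, so that a different response of the genotypes was not detectable at these counts. With H2O2, Serping1 was lower in TβRII-/- cells by -0.70 (SE 0.291, adjusted p = 0.0357), a call that was lost with DESeq2 (adjusted p = 0.0649) and without any 1 of 3 libraries (TβRII flox/flox with H2O2 replicate 3, adjusted p = 0.122, and TβRII-/- with H2O2 replicates 2 and 3, adjusted p = 0.0547 and 0.132). The rise in TβRII flox/flox cells was also lost without the untreated replicate 3 (0.86, adjusted p = 0.0609) or the H2O2 replicate 3 (0.89, adjusted p = 0.0508).

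Cfi, the protease that inactivates C3b and C4b, lies at chr3:129836727-129875332 (plus strand) and had the fewest counts. It had 1, 0 and 1 counts in untreated TβRII flox/flox cells and 0, 6 and 2 in untreated TβRII-/- cells. With H2O2 it had 0 counts in all 3 TβRII flox/flox libraries and 11, 13 and 8 in the TβRII-/- libraries. Against a floor of 3 counts over the group, with the 32 counts taken as given, Cfi was at least 8.97-fold higher in TβRII-/- cells with H2O2. The exact 95% interval of that ratio, which also covers the counting error of the 32, begins at 6.88. Untreated, 8 against 2 summed counts gave a ratio of 3.66 with an exact 95% interval from 0.731 to 35.4. In TβRII-/- cells, H2O2 against untreated gave 32 against 8 counts and a ratio of 3.61 (1.63 to 9.07). When the filter was left out, edgeR's adjusted p was 1.25e-05 for the genotypes with H2O2 and 0.0449 for H2O2 in TβRII-/- cells.

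Of the membrane regulators, Cd55 (decay-accelerating factor) lies at chr1:130429798-130465009 (minus strand). The Cd55 transcript with most counts was one with a retained intron (ENSMUST00000140725). It had 14, 10 and 8 counts in untreated TβRII flox/flox cells and 34, 50 and 41 in untreated TβRII-/- cells. The H2O2-treated libraries held 8, 8 and 10 against 20, 31 and 18. In both media, every TβRII-/- library was above every TβRII flox/flox library. Cd55 was higher in TβRII-/- cells by 1.83 (SE 0.304, adjusted p = 3.97e-06) untreated and by 1.14 (SE 0.353, adjusted p = 0.00526) with H2O2. It fell with H2O2 in TβRII-/- cells, from 41.1 ± 6.62 to 20.2 ± 3.59 normalized counts (log2 difference -1.004, SE 0.261, adjusted p = 0.00262). In TβRII flox/flox cells the difference was -0.32 (95% interval -1.15 to 0.52), and the responses differed by -0.69 (-1.69 to 0.32, adjusted p = 0.430).

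On the protein-coding transcript of Cd55 (ENSMUST00000027650), chosen as an alternative after the counts had been seen, the medians were 4 and 26 counts in the untreated genotypes and 3 and 16 with H2O2. The genotype differences were 2.40 (adjusted p = 0.000116) and 2.26 (adjusted p = 0.000631) on this transcript. The fall with H2O2 in TβRII-/- cells was not called there (-0.45, adjusted p = 0.339), so that it rests on the transcript with the retained intron. The near copy Cd55b (91.1% identity over 1227 bases) had 0 counts in all libraries.

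**Figure D3:**
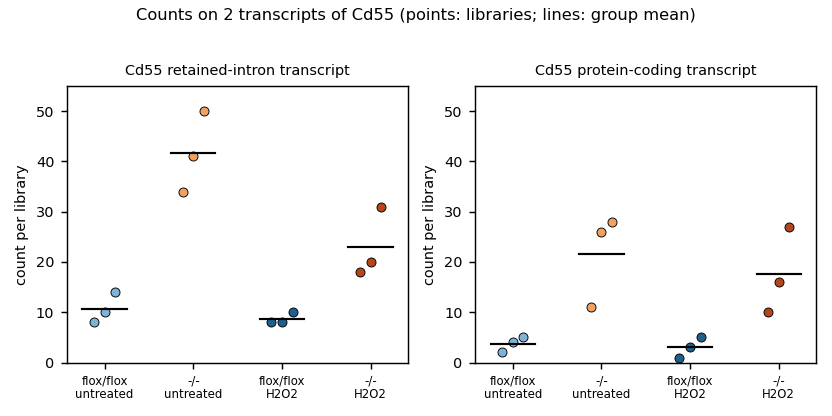
Counts per library (y axis) on 2 transcripts of Cd55 in the 4 groups (x axis). Points are libraries and lines are group means (n = 3). Both transcripts sat higher in TβRII-/- cells. With H2O2 the retained-intron transcript sat at 18 to 31 counts in TβRII-/- cells, against 34 to 50 untreated, whereas the protein-coding one overlapped between media.

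Cd59a, the inhibitor of the membrane pore, lies at chr2:104095753-104115410 (plus strand) and had the highest level of all members. It had 779, 725 and 746 counts in untreated TβRII flox/flox cells and 832, 1037 and 899 in untreated TβRII-/- cells. After H2O2 there were 796, 759 and 748 against 825, 964 and 808. The means lay within a narrow range, from 774 to 912 normalized counts. No comparison reached 1.5-fold. The genotypes differed by 0.17 untreated (95% interval 0.03 to 0.31, adjusted p = 0.0281) and by -0.08 with H2O2 (-0.22 to 0.06). H2O2 gave 0.01 (-0.13 to 0.15) in TβRII flox/flox cells and -0.24 (-0.37 to -0.10, adjusted p = 0.00568) in TβRII-/- cells. These responses differed by -0.25 (-0.45 to -0.05, unadjusted p = 0.0153, adjusted p = 0.101). Its neighbour Cd59b (83.2% identity over 739 bases) held at most 0.840% of the summed counts of the pair.

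The responses of the genotypes to H2O2 were compared by the interaction in the same model. None of the 8 tested members passed (0 at an adjusted p under 0.05 with edgeR and 0 with DESeq2), where 10.2% of all genes did (3.90% higher and 6.28% lower). At an unadjusted p under 0.05 there were 2, C1s1 and Cd59a. The interval was widest for C4b, from -2.36 to 2.55 on the log2 scale.

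The rest of the pathway was examined through 49 other complement genes, of which 48 were in the files and 14 passed the filter. Most recognition molecules and terminal components had almost no counts. C1qa, C1qb, C1qc, Mbl1 and Mbl2 had 0 counts in all 12 libraries, and so did the pore components C6, C7, C8a and C8b. C9 and Hc, the gene of C5, had 1 count in all libraries together. The receptors C3ar1, C5ar1 and C5ar2 had at most 2 counts in any library. Between untreated genotypes, 5 of the 14 tested genes were higher in TβRII-/- cells and 0 were lower, where 16.3% and 11.8% of all genes were. The median difference of the 14 was 0.11 on the log2 scale.

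Of the 7 tested regulators in this list, 3 were called, all higher in TβRII-/- cells, and the median of the 7 was 0.19. Susd4, a membrane inhibitor of complement, had 36 to 47 counts in untreated TβRII flox/flox cells and 1081 to 1204 in untreated TβRII-/- cells, a difference of 4.67 (SE 0.101, adjusted p = 9.80e-28). Cpn1, the catalytic subunit of the carboxypeptidase that inactivates anaphylatoxins, had 6 to 9 against 69 to 83 counts, a difference of 3.21 (SE 0.276, adjusted p = 6.67e-12). Clu (clusterin), a fluid-phase inhibitor of the pore, had 994 to 1213 against 2320 to 2672 counts, a difference of 1.02 (SE 0.068, adjusted p = 1.18e-14). The 2 others higher in TβRII-/- cells were Masp1, a protease of the lectin pathway (1.44, adjusted p = 5.78e-08), and Itgb2, the β chain of the complement receptors of leukocytes (1.77, adjusted p = 0.000188). In TβRII flox/flox cells of either medium, Cpn1 had at most 9 counts per library and Itgb2 at most 11. Both therefore needed TβRII-/- libraries to pass the filter on low counts. Their genotype tests, here and with H2O2, are not independent of the filter. The leukocyte marker Ptprc had at most 6 counts in any library.

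With H2O2, 6 of the 14 were higher and 3 lower in TβRII-/- cells, against 17.3% and 13.4% of all genes, with a median of 0.49. Susd4 (3.99), Cpn1 (4.89), Clu (1.29), Masp1 (1.61) and Itgb2 (2.15) were higher again, and C1s2 was added (0.92, adjusted p = 0.0242). Lower were C4bp, a soluble inhibitor of the classical pathway (-0.74, adjusted p = 0.0397), properdin (Cfp), the stabilizer of the alternative convertase (-0.63, adjusted p = 0.00362), and the membrane regulator Cr1l, named here after its values had been seen (-0.62, adjusted p = 1.52e-06). H2O2 was accompanied by 7 higher and 0 lower genes of the 14 in TβRII flox/flox cells (median 0.66, with 5.68% and 2.56% of all genes) and by 5 higher and 0 lower in TβRII-/- cells (median 0.49, with 4.56% and 3.76% of all genes). The classical-pathway proteases C2 and C1s2 rose in both genotypes, and so did C1rl, where C1s2 needed libraries with H2O2 to pass the filter. C1rl, a C1r-like protease named here after its values had been seen, rose by 1.44 (adjusted p = 2.15e-06) and 1.70 (adjusted p = 9.66e-08). Only Susd4 of the 14 passed the interaction (-0.68, 95% interval -1.01 to -0.34, adjusted p = 0.00679), with a rise of 0.85 in TβRII flox/flox cells against 0.17 in TβRII-/- cells.

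**Figure D4:**
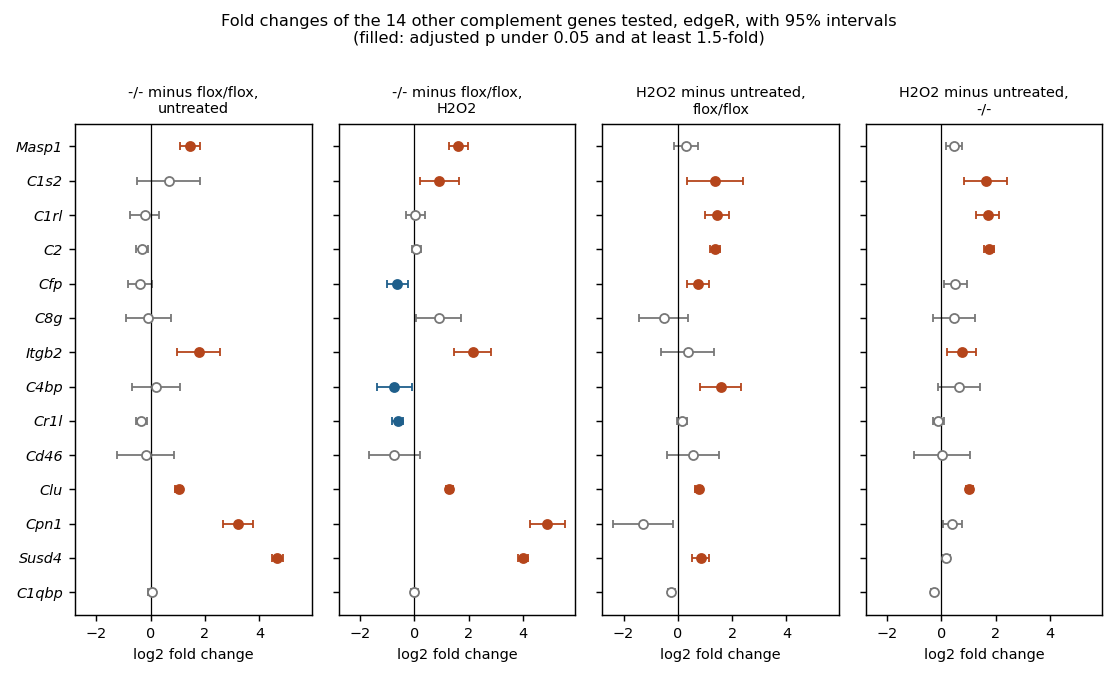
Log2 fold changes (x axis, edgeR, with 95% intervals) of the 14 other complement genes tested, in the 4 comparisons (panels). Filled points passed both limits. Susd4 and Cpn1 lay at 4.67 and 3.21 between untreated genotypes, and C1s2, C1rl and C2 lay above 1 with H2O2 in both genotypes.

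Receptors, kinases and transcription factors known to induce complement genes (15 genes, all tested) were mixed. Between untreated genotypes, 3 were higher and 5 lower in TβRII-/- cells, with a median of -0.19, where 28.0% of all genes were called. The largest rise was in Il6ra, the interleukin-6 receptor (58.3 ± 5.80 against 190 ± 14.6 normalized counts, 1.70, adjusted p = 2.33e-12). The largest fall was in Cebpd, a C/EBP transcription factor (99.1 ± 9.33 against 27.5 ± 14.2, -1.86, adjusted p = 2.44e-08). Cebpb, another C/EBP factor, was higher (102 ± 38.4 against 272 ± 115, 1.41, adjusted p = 8.32e-07). The receptor genes Il6st (-1.28, adjusted p = 1.36e-16) and Ifngr1 (-0.97, adjusted p = 1.51e-13) were lower. With H2O2, Cebpb differed by 0.77, Il6st by -1.63 and Ifngr1 by -1.17. Cebpb, Il6st and Ifngr1 were named here after their values had been seen. Of the 15 genes, 2 were higher and 6 lower with H2O2 (median -0.13), against 30.7% of all genes. H2O2 was accompanied by 3 higher and 0 lower in TβRII flox/flox cells (8.24% of all genes) and by 1 higher and 0 lower in TβRII-/- cells (8.33%). Il6ra rose by 0.97 in TβRII flox/flox cells (adjusted p = 5.66e-06) and passed the interaction (-1.54, adjusted p = 1.58e-06). In TβRII-/- cells it differed by -0.57 with H2O2 (adjusted p = 0.000277), short of 1.5-fold. With H2O2 the genotypes overlapped in Il6ra (0.16, adjusted p = 0.284). The part of these genes in the complement values was not tested.

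The neighbourhoods of C3, C1ra and C1s1 were set beside the genes themselves. The median log2 difference over the 5 nearest tested protein-coding genes on each side was 0.06 between untreated genotypes around C3 and -0.05 around C1ra and C1s1, against 1.53 for C3, -0.76 for C1ra and 0.10 for C1s1. With H2O2 in TβRII-/- cells it was 0.27 around C1ra and 0.21 around C1s1, against 0.99 and 2.63 for the genes themselves. These medians include complement genes of the same cluster: the nearest neighbours of C1ra, C1rl and C1s1, were at 1.70 and 2.63, and C1s2 beside C1s1 was at 1.63.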

How the data were processed

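RNA of 12 libraries in 4 groups was measured by stranded mRNA sequencing, with groups and replicate numbers taken from the labels. Reads had been trimmed with fastp, aligned with STAR to GRCm38.p6 (GENCODE M23) and counted with featureCounts by the authors, who deposited whole-number counts per transcript without normalization. The tests had been planned for counts per gene. As a read could be counted on several transcripts, the transcript with most counts stood for each gene. Of 106332 transcripts, 104820 were matched to 25514 genes of GENCODE M39, and the other 1512 (1.22% to 1.28% of a library's counts) were left out. The authors' strand and multi-mapping settings are not given in the sources used here.

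The main test was edgeR's (4.0.16, in R 4.3.3): TMM, filterByExpr by group, then glmQLFit with glmQLFTest on a mean per group over all 12 libraries. Contrasts were the genotypes in each medium, H2O2 in each genotype and the interaction, adjusted by Benjamini-Hochberg over 12971 genes. Calls needed an adjusted p under 0.05 and a fold change of 1.5 (the adjusted p alone for the interaction). Gene positions and the 250-base promoters came from RefSeq (GRCm38.p6). Copies were aligned with BLAST 2.17.0+ on GENCODE M39 transcripts, and overlaps were read from its annotation. Alternatives were DESeq2 1.42.0, its size factors in edgeR, no filter, sums over transcripts, a replicate block, unadjusted p under 0.01, only the groups compared, and each library left out. The main test was checked on simulated counts with known fold changes.

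The 9 members, the other complement genes, the known inducers and the marker lists were chosen with earlier results of these data known. All members are named. Other complement genes are named if called between genotypes, at most 4 per list, and of the inducers the largest rise and fall. C2, C1rl, Cr1l, Cebpb, Il6st, Ifngr1 and the single cell markers with values fall outside this rule and were named after their values had been seen. No 2 replicates agreed within sampling noise (chi-square per gene between 3.64 and 12.7). Intervals and floors of summed counts cover counting error only. Comparisons computed by the authors were not used.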

Additional observations from a re-analysis of the deposited data

How the results depend on the processing

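Of 598 values of single members under the alternatives, 587 kept their side of the limits, and 0 of the values called in the report reversed. Values that were not called could change sign. Between untreated genotypes, Cfb (0.10) ranged from -0.04 to 0.24 and C1s1 (0.10) from -0.11 to 0.41. Serping1 between genotypes with H2O2 (-0.70) was no longer called with DESeq2 (-0.72, adjusted p = 0.0649), without a filter (-0.69, adjusted p = 0.0629), and it missed the unadjusted limit of 0.01. The calls of Serping1 and C4b that rested on single libraries and that of Cd55 on its transcript are given above. For the genotype by H2O2 interaction, 1321 genes were called over all genes tested, and 357 when an unadjusted p under 0.01 and a fold change of 1.5 were required instead. With 1 library left out this count lay between 833 and 1680, with 833 and 878 without TβRII-/- with H2O2 replicates 1 and 2, and the cause was not tested. The count of members called for the interaction was 0 under every alternative run. Replicate numbers did not pair the libraries, since deviations from group means correlated between -0.10 and 0.06 in 18 pairs of same-numbered libraries and 0 were over 0.1. With the replicate number as a block, the called members numbered 3, 5, 5, 5 and 0 in the 5 contrasts, as without it, and the block gave 1202 genes for the interaction. Precision was limited by low counts: the standard errors of C4b, Cfb, Serping1 and Cd55 in the 4 comparisons lay between 0.219 and 0.836 on the log2 scale, against 0.115 to 0.164 for C3.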
